A study of Mus musculus with 4 samples.

Results

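Genes described here were *H19*, *Cdkn1c*, *Peg3*, *Plagl1*, *Grb10*, *Mest*, *Ndn*, *Sgce* and *Phlda2*, 9 imprinted genes that lie outside the *Dlk1* to *Mirg* locus and most of which are known for effects on growth. They were taken as the rows of the count matrices that carried these symbols, and each symbol was found once, so that the list held 9 of 32285 genes. The question was whether imprinted genes outside the *Dlk1* locus changed in the endocardium, the inner lining of the heart, after endothelial deletion of the transcription factor *Ets1*. Single-cell RNA sequencing libraries were made from ventricles of mouse embryos at E14.5, with 3 ventricles pooled per library. *Ets1* eKO embryos were *Tie2*Cre;*Ets1* fl/fl and controls were *Tie2*Cre;*Ets1* fl/+, with 2 libraries of each genotype, so that both groups carried *Tie2*Cre and at least 1 floxed *Ets1* allele and no group received a treatment. *Tie2*Cre is active in endothelial cells and also in blood lineage cells, and the mesenchyme of the heart cushions derives from endocardium, so that recombination was not restricted to the lining of the ventricle. Embryos of either sex, which were not sexed, were on a C57BL/6 background.

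An imprinted gene is read mainly from the maternal or from the paternal copy, according to a methylation mark that is set in the germ line. Imprinted genes lie in clusters that share a control region, and many of them act on fetal growth. Those read from the maternal copy, such as *Cdkn1c*, *Grb10*, *Phlda2* and *H19*, are known mostly for restraining growth, whereas several read from the paternal copy, such as *Mest*, *Peg3* and *Plagl1*, are needed for full growth. The counts did not separate the parental copies, so imprinting itself was not measured. UMI counts from the 3′ end depend on the transcript, and levels were therefore compared between cells and libraries but not between genes.

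Positions are those of the GENCODE vM21 annotation on GRCm38. *H19*, a long non-coding RNA, lay at chr7:142575529-142578143 on the minus strand, 72.6 kb from *Igf2*. *Cdkn1c*, which encodes the cyclin-dependent kinase inhibitor p57, lay at chr7:143458339-143461050 on the minus strand, 40.5 kb from *Phlda2* at chr7:143501545-143503150 and 31.3 kb from *Kcnq1*. *Peg3*, which encodes a zinc finger protein, lay at chr7:6703892-6730431, with its start 146 bases from *Usp29*. *Plagl1*, which encodes a zinc finger factor known to act on other imprinted genes, lay at chr10:13060504-13131694. *Grb10*, which encodes an adaptor that dampens insulin and growth factor receptor signaling, lay at chr11:11930508-12038683. *Mest*, which encodes a hydrolase family protein, lay at chr6:30723547-30748465 and overlapped the 3′ end of *Copg2* on the opposite strand. *Ndn*, which encodes necdin, lay at chr7:62346569-62350262, and *Sgce*, which encodes epsilon-sarcoglycan, lay at chr6:4674350-4747207, 98 bases from *Peg10*.

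The *H19* transcript contains the hairpin of a microRNA, and both of its mature arms are shown because they are the part of *H19* with a defined sequence-based target rule. The sequences are from RefSeq (GRCm38.p6), with the seed, bases 2 to 8, in capitals. The arms lie at chr7:142577112-142577133 (5p) and chr7:142577078-142577099 (3p), on the minus strand within *H19*. The UMI counts measured the long transcript, not these arms.
miR-675-5p: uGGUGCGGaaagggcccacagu
miR-675-3p: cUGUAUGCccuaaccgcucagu

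Promoter sequence was listed by RefSeq for 6 of the 9 genes. The 250 bases before the first listed start are shown for *Grb10*, whose CPM lay below both controls in *Ets1* eKO in most cell classes, and for the first 2 listed starts of *Mest*, whose counts separated trabecular from compact cardiomyocytes. Capitals mark GGAA, the core letters that ETS family factors bind, or TTCC where those letters lie on the other strand. The windows are chr11:12037421-12037670 on the minus strand for *Grb10*, and chr6:30733256-30733505 and chr6:30737800-30738049 on the plus strand for *Mest*.
Grb10: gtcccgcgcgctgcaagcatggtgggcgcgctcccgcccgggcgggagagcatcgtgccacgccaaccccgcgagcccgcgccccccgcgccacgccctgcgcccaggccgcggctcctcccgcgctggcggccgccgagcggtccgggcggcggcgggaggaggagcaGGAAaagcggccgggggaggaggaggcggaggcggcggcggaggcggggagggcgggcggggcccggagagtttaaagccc
Mest start 1: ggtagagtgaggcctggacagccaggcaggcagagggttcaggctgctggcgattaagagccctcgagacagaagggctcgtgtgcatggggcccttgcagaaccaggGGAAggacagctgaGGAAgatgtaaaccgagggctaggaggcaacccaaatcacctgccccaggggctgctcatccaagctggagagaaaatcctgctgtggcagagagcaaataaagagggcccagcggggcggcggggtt
Mest start 2: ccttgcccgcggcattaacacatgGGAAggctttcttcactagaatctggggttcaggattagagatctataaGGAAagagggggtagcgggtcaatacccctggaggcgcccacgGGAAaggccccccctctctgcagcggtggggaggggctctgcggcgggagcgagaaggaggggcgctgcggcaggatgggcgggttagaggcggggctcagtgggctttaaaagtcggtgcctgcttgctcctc
GGAA or its complement TTCC was found in 93.4% of 32851 promoter windows of the same length, with a median of 3 matches, so that a match is common. The *Grb10* window had 1 match, the *Mest* starts shown had 2 and 3, *Peg3* had 3, *Ndn* had 4, *Phlda2* had 1 and *Plagl1* had 0. The longer form CGGAAG, with its complement CTTCCG, was found in 13.6% of the windows and in 0 of the members' windows. The *Grb10* window shown had a GC content of 81.2% and the window of its second listed start, chr11:12027972-12028221, had 54% and also 1 match, beside a median GC content of 52.4% over all windows. Counts from the 3′ end did not tell the *Mest* starts apart.

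The libraries held 7949 to 14951 cell barcodes and 76931208 to 124140739 UMIs, and 38003 of 45551 barcodes were used after filters and removal of 3666 barcodes called as doublets. Median UMIs per cell used were 8693 and 8585 in the control pair against 8249 and 5304 in the *Ets1* eKO pair, so that the second *Ets1* eKO library was the shallowest per cell. Pairs of libraries shared 19 to 47 barcodes, at most 0.44% of the smaller library. Cells were assigned to classes by scores of marker genes, here called gates, and 2556 cells fell in none. The mEndo gate, cells of the ventricular endocardium, held 1089 and 805 control cells and 1014 and 1896 *Ets1* eKO cells. The vEndo gate, endocardium of the valves, held 117 and 105 control cells and 118 and 155 *Ets1* eKO cells, and the cvEC gate, coronary vascular endothelial cells, held 383 and 215 control cells and 319 and 545 *Ets1* eKO cells. Among the 10 genes that led each gate were *Npr3* and *Adgrg6* for mEndo, *Wnt4* and *Wnt9b* for vEndo and *Fabp4* and *Aplnr* for cvEC. None of the 9 genes was a gating marker. *Ets1* itself was 282 and 262 CPM (UMIs of the gene per 1000000 UMIs summed in that gate) in control mEndo and 121 and 93.4 in *Ets1* eKO mEndo (log2 fold change -1.29 ± 0.14 SE, adjusted p = 0.00136, edgeR quasi-likelihood test with Benjamini-Hochberg adjustment), and it was also lower in vEndo (-1.13, adjusted p = 0.0155) and cvEC (-1.09, adjusted p = 0.0219). Whether the counted 3′ tags of *Ets1* lie within the deleted part was not known, so these counts do not measure the extent of deletion. Each library is a pool. P-values between the genotypes weigh a difference against the spread between the libraries of a group. Those of fits with a library term weigh it against the spread that remains after each library's own level is taken out. Fewer transcripts per cell and a change in the mix of cells within a gate cannot be told apart in summed counts.

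In mEndo, none of the 8 members with enough counts for the test passed an adjusted p of 0.05, beside 2.85% of the 13074 genes tested there. By edgeR 1 member, *Cdkn1c*, was at an unadjusted p under 0.05, beside 2745 of all 13074 genes. DESeq2 called 0 members, beside 385 of all genes. The median log2 fold change of the 8 was 0.03, beside 0.0023 over all genes. In vEndo, 0 of 8 members passed beside 0.283% of genes, and 1 was at an unadjusted p under 0.05, beside 1043 of 9180 genes (edgeR). DESeq2 called 0 members there, beside 15 genes. In cvEC, 0 of 8 passed beside 0.808% of genes, and 2 were at an unadjusted p under 0.05, beside 1349 of 11269 genes (edgeR). DESeq2 called 0 members there, beside 66 genes. The plot of the endothelial gates gives each library's value.

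**Figure D1:**
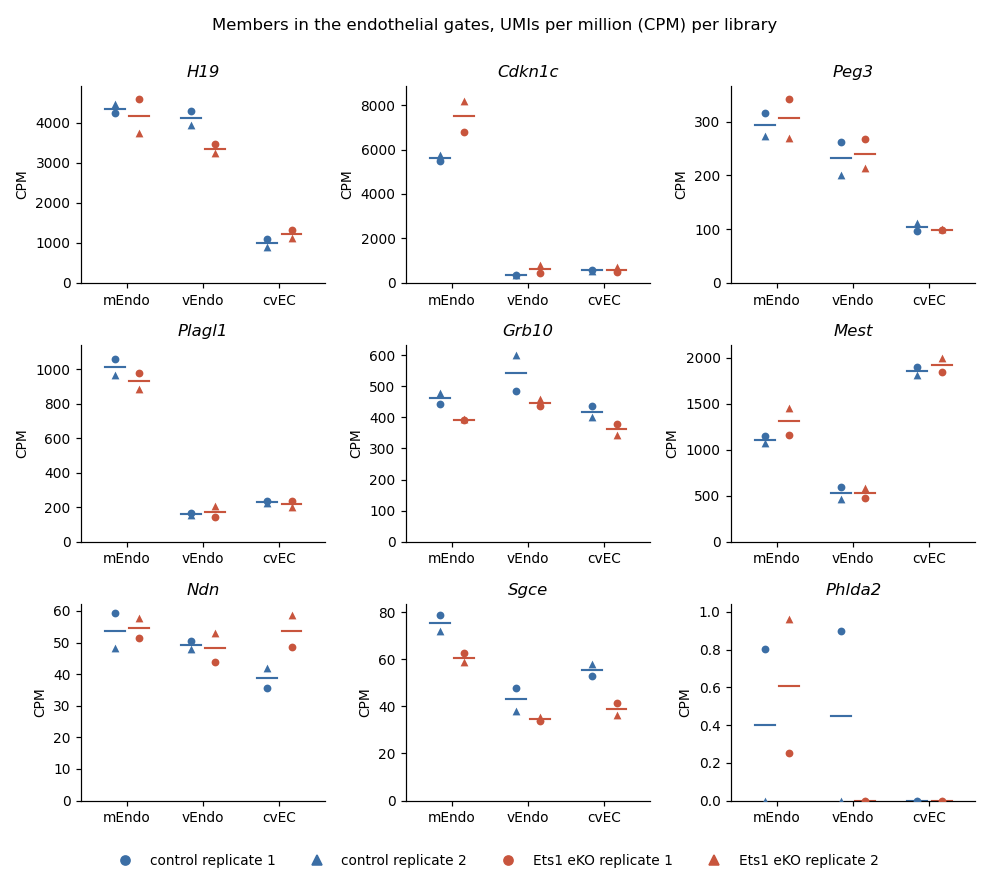
CPM (y axis, from 0, with its own range per gene) of the 9 genes in the mEndo, vEndo and cvEC gates, with 1 point per library, circles for replicate 1 and triangles for replicate 2, and a bar at the group mean. *Cdkn1c* in mEndo was 5472 and 5738 in the control pair against 6782 and 8204 in the *Ets1* eKO pair, whereas *H19* and *Peg3* in mEndo overlapped between groups.

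Among the members known to restrain growth, *Cdkn1c* had the greatest difference in the endocardium. Its level in mEndo was 5472 and 5738 CPM for the controls against 6782 and 8204 for *Ets1* eKO, and the groups did not overlap. The log2 fold change was 0.48 ± 0.19 (SE, n = 2 libraries per group), with an edgeR p of 0.0279 and an adjusted p of 0.185. In vEndo *Cdkn1c* was 330 and 351 CPM for the controls against 445 and 799 for *Ets1* eKO, again without overlap, with a log2 fold change of 0.92 ± 0.23 (SE) and an edgeR adjusted p of 0.168. In cvEC it was 579 and 542 CPM for the controls against 468 and 713 for *Ets1* eKO, and these values overlapped. The share of all genes whose groups did not overlap in a single gate was not counted, here or below. With 2 against 2 libraries a lack of overlap is common without any difference, so alone it carries no weight. The second *Ets1* eKO library was the highest in all 3 gates. Without that library the difference fell to 0.31 in mEndo and to 0.45 in vEndo. Without the first *Ets1* eKO library it was 0.63 in mEndo and 1.28 in vEndo, and the call changed in both gates. These fits left 1 *Ets1* eKO library, assumed to vary like the others, so only effect sizes are given here. Without the filter on low counts, *Cdkn1c* in mEndo passed (0.49, adjusted p = 0.0104, edgeR), as did 1148 of 21077 genes. DESeq2 gave 0.49 in mEndo (adjusted p = 0.0512). In vEndo *Cdkn1c* passed without that filter (0.89, adjusted p = 9.33e-05) and with the replicate number as a block (0.87, adjusted p = 0.00145). The numbers did not pair the libraries. Without the second control library the vEndo difference was 0.95 and the call also changed. A stricter vEndo gate gave 0.43 (adjusted p = 0.655, edgeR for all vEndo values).

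Amounts per cell in mEndo were spread widely in every library, and the medians were higher in *Ets1* eKO. A median control cell held 49.8 and 51.2 *Cdkn1c* UMIs per 10000 UMIs of the cell, and a median *Ets1* eKO cell held 62.2 and 77.4. Cells with at least 30 per 10000, a threshold set after the values were seen, made up 70.3% and 68.7% of control mEndo cells and 75.5% and 85.1% of *Ets1* eKO mEndo cells. When each cell was thinned to 2000 UMIs, *Cdkn1c* had a UMI in 94.4% and 90.4% of the control mEndo cells against 91.5% and 95.9% of the *Ets1* eKO mEndo cells, and these shares, near their ceiling, overlapped between the groups. At 1000 UMIs per cell the mean share was 4.36 percentage points higher in *Ets1* eKO, beside 1.30 points at 2000 UMIs. These shares were 88.9% and 84.6% for the controls against 88.7% and 93.5% for *Ets1* eKO, and they overlapped. Immune cells, whose *Cdkn1c* UMIs were not told apart from free RNA in the droplets and which serve here as a background, had a UMI in 7.01% and 8.33% for the controls against 4.05% and 17.5% for *Ets1* eKO at the same 2000 UMIs (median depth before thinning 6471 and 7109 UMIs in controls, 6323 and 3981 in *Ets1* eKO, against 6850 and 7434, and 6901 and 4382, in mEndo). In vEndo a few cells carried most of the signal. The highest 10% of vEndo cells held 74.7% and 69.4% of the *Cdkn1c* UMIs for the controls against 76.1% and 75.2% for *Ets1* eKO, and cells at 30 or more per 10000 numbered 5 of 117 and 4 of 105 in control libraries and 6 of 118 and 14 of 155 in *Ets1* eKO.

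**Figure D2:**
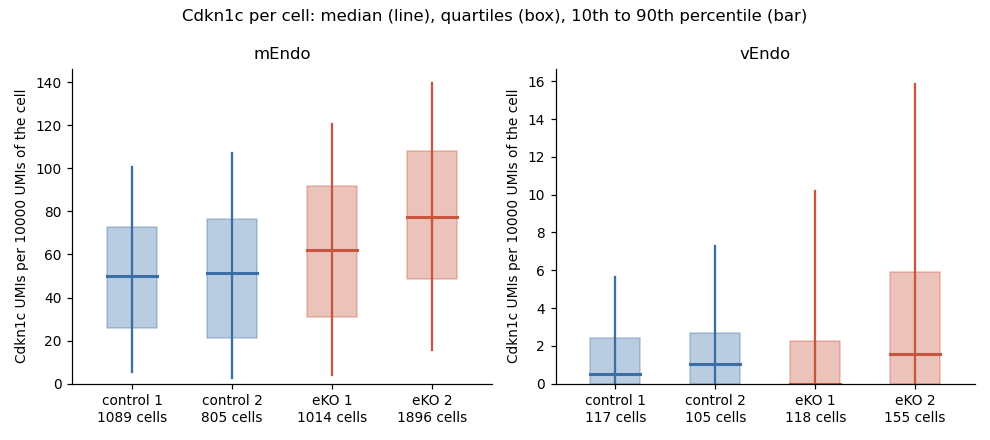
*Cdkn1c* UMIs per 10000 UMIs of the cell (y axis) in each library of the mEndo and vEndo gates, with the median as a line, quartiles as a box and the 10th to 90th percentile as a bar; the panels have different ranges. Medians in mEndo were 49.8 and 51.2 in the control pair against 62.2 and 77.4 in the *Ets1* eKO pair, and the vEndo medians were all below 2.

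Sums of marker genes of other cell types in mEndo also moved between the groups, some up and some down. The summed level of the 8 fibroblast markers was 320 and 244 CPM for the controls against 758 and 713 for *Ets1* eKO, the 10 cycling markers summed to 692 and 885 CPM for the controls against 1047 and 1365 for *Ets1* eKO, and the 3 pericyte markers summed to 7.8 and 8.3 CPM for the controls against 28.0 and 21.6 for *Ets1* eKO. Smooth muscle markers went the other way, with 89.4 and 131 CPM for the controls against 81.0 and 84.1 for *Ets1* eKO. So did trabecular markers, with 542 and 551 CPM for the controls against 443 and 454 for *Ets1* eKO. Immune, erythroid and compact marker sums overlapped. The 5 mEndo markers that defined the gate summed to 3017 and 2817 CPM for the controls against 2500 and 2215 for *Ets1* eKO. With cycling cells left out, the *Cdkn1c* difference in mEndo was 0.48 (adjusted p = 0.187, edgeR), the same size as with them, and the part of the other sums was not tested. All 8 fibroblast, 10 cycling and 3 pericyte markers had UMIs in each library. *Cdkn1c* itself averaged 2860 CPM in the pericyte gate, beside 6549 CPM in mEndo. The pericyte values were 3040 and 3167 CPM for the controls against 2619 and 2614 for *Ets1* eKO.

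*H19* did not separate the groups in mEndo, with 4238 and 4483 CPM for the controls against 4592 and 3740 for *Ets1* eKO (log2 fold change -0.01 ± 0.18 SE, adjusted p = 0.98). In vEndo *H19* was 4303 and 3949 CPM for the controls against 3462 and 3252 for *Ets1* eKO (-0.24, adjusted p = 0.576), and in cvEC it was 1096 and 903 CPM for the controls against 1325 and 1114 for *Ets1* eKO (0.36, adjusted p = 0.434, edgeR for all), a value that ranged from 0.23 to 0.50 when 1 library was left out. The *Ets1* eKO libraries were thus below controls in vEndo and above them in cvEC, with neither difference past the threshold in the full fit. Without the second *Ets1* eKO library the cvEC difference was 0.46 and the call changed. *Grb10* was 444 and 478 CPM for control mEndo against 391 and 395 for *Ets1* eKO mEndo (-0.17 ± 0.14 SE, adjusted p = 0.505). *Phlda2*, which restrains growth of the placenta, was near the limit of detection with 18 UMIs over all mEndo cells of the 4 libraries, 1 UMI in vEndo and 0 UMIs in cvEC. In cvEC thinned to 2000 UMIs, *Phlda2* was found in 0 of 370 and 0 of 210 cells of the control libraries and in 0 of 298 and 0 of 522 cells of the *Ets1* eKO libraries, which allows shares of cells with a UMI at this depth of up to 0.992%, 1.74%, 1.23% and 0.704% (upper exact binomial 95% limits, counting error only). These limits do not bound the share of cells that express the gene.

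Among members read from the paternal copy, *Plagl1* was 1060 and 967 CPM for control mEndo against 977 and 882 for *Ets1* eKO mEndo, and *Peg3* was 315 and 274 CPM for the controls against 343 and 269 for *Ets1* eKO. Both overlapped between groups. *Mest* was 1149 and 1072 CPM for control mEndo against 1164 and 1452 for *Ets1* eKO mEndo (0.30 ± 0.17 SE, adjusted p = 0.349). The first *Ets1* eKO library thus lay close to the first control. Without that *Ets1* eKO library the *Mest* difference was 0.47 and the call changed, whereas without the second *Ets1* eKO library it was 0.10. These fits also left 1 *Ets1* eKO library, so only effect sizes are given. *Ndn*, a growth suppressor in neurons, overlapped in mEndo at 59.2 and 48.3 CPM for the controls against 51.3 and 57.9 for *Ets1* eKO, whereas in cvEC it was 35.8 and 41.9 CPM for the controls against 48.6 and 58.6 for *Ets1* eKO (0.56 ± 0.17 SE, adjusted p = 0.191, edgeR). Leaving out 1 library at a time gave 0.40 to 0.70 for *Ndn* in cvEC, and the call changed without the first *Ets1* eKO library. *Sgce* CPM in *Ets1* eKO lay below both controls in each endothelial gate, at 78.8 and 72.1 against 62.4 and 59.0 CPM in mEndo (-0.26 ± 0.13 SE, adjusted p = 0.282), 47.7 and 38.1 against 33.7 and 35.3 CPM in vEndo (-0.27) and 53.1 and 57.9 against 41.6 and 36.4 CPM in cvEC (-0.43 ± 0.15 SE, adjusted p = 0.301). None of these differences passed the threshold in the full fit. The *Sgce* difference in vEndo rested on 148 UMIs and changed sign when cells were thinned to 2000 UMIs (0.88).

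Difference between the endothelial gates in their response to *Ets1* deletion was tested directly, with the library as a term. Between mEndo and cvEC, 0 of 8 members passed beside 1.66% of genes. *Cdkn1c* came nearest, with an effect that was 0.37 ± 0.10 (SE) higher on the log2 scale in mEndo than in cvEC (adjusted p = 0.0779), followed by *H19* with -0.35 ± 0.10 (adjusted p = 0.0941, edgeR). With scaling to total counts, both passed, *Cdkn1c* at 0.37 (adjusted p = 0.0451) and *H19* at -0.36 (adjusted p = 0.0497, edgeR for both). The share of 1.66% belongs to the main scaling, and the share of all genes passing with total counts was not counted. Whether these 2 calls exceed that share is therefore not known. Under the main scaling the calls turned on single libraries. *H19* passed without the first control library (-0.56) but was -0.16 without the second, and *Cdkn1c* passed without the second control library (0.46) but was 0.18 without the first *Ets1* eKO library. *Ndn* differed by -0.48 ± 0.16 (adjusted p = 0.177, edgeR), and by -0.69 to -0.20 when 1 library was left out. Between mEndo and vEndo, 0 of 8 members passed beside 0.707% of genes, and *Cdkn1c* differed by -0.42 ± 0.12 (adjusted p = 0.187, edgeR). That difference passed without the first control (-0.43), without the second control (-0.38) and without the first *Ets1* eKO library (-0.69), whereas without the second *Ets1* eKO library it was -0.12 and did not pass. For *H19*, with 0.21 in the full fit, the difference passed without the second control (0.36) and was 0.087 without the first. By edgeR 4 members of the first contrast and 2 of the second were at an unadjusted p under 0.05. Among all genes these were 1694 of 13059 in the first contrast and 1058 of 12729 in the second. DESeq2 was not run for these contrasts.

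Outside the endothelium, no member passed in cardiomyocytes (0 of 9, beside 0.00624% of genes), fibroblasts (0 of 8, beside 0.0414%), epicardial cells (0 of 8, beside 0%) or immune cells (0 of 5, beside 0.0113%) by edgeR. At an unadjusted p under 0.05 (edgeR) there were 0, 1, 0 and 1 members. All genes at that level were 1940 of 16019, 1528 of 14508, 568 of 9771 and 425 of 8838, in the same order. DESeq2 called 0 members in each gate, beside 36, 78, 0 and 1 genes. In fibroblasts *Cdkn1c* was 287 and 246 CPM for the controls against 310 and 407 for *Ets1* eKO (0.51 ± 0.17 SE, adjusted p = 0.391, edgeR), and leaving out 1 library at a time gave 0.30 to 0.70, with the lowest value without the second *Ets1* eKO library. Within *Tcf21* type fibroblasts it was 394 and 348 CPM for the controls against 406 and 503 for *Ets1* eKO, and within cushion mesenchyme the groups overlapped. In pericytes, a gate not tested, *Cdkn1c* lay lower in *Ets1* eKO, with 3040 and 3167 CPM for the controls against 2619 and 2614 for *Ets1* eKO. In cardiomyocytes it was 294 and 364 CPM for the controls against 265 and 407 for *Ets1* eKO and overlapped. In epicardial cells *Peg3* was 1313 and 1334 CPM for the controls against 1090 and 1062 for *Ets1* eKO (-0.23), and in immune cells *H19* was 109 and 144 CPM for the controls against 58.2 and 92.9 for *Ets1* eKO (-0.69, edgeR adjusted p = 0.987). Leaving out 1 library at a time gave -1.08 to -0.38 for *H19* in immune cells, and the call changed without the second *Ets1* eKO library. The plot of fold changes by gate shows the estimates of the 8 members with their standard errors.

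**Figure D3:**
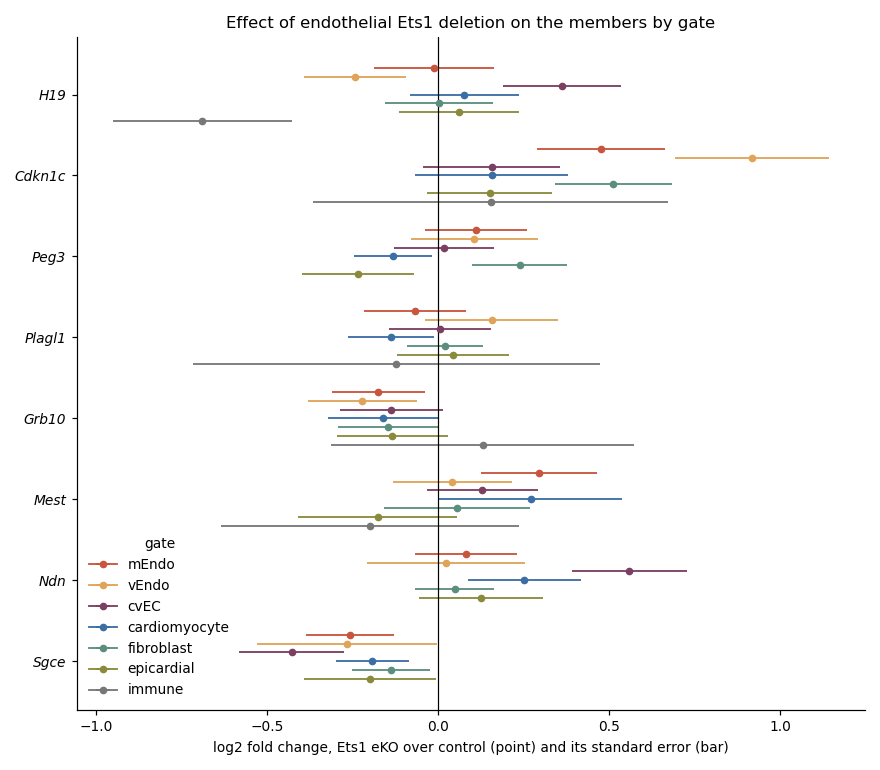
Log2 fold change of *Ets1* eKO over control (x axis) for 8 members in 7 gates, with points at the edgeR estimate and bars of 1 standard error; gates in which a member had too few counts are left out. The estimates ran from -0.69 for *H19* in immune cells to 0.92 for *Cdkn1c* in vEndo, and none passed an adjusted p of 0.05.

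*Sgce* and *Grb10* had small differences of the same sign in many cell classes. In 10 of 10 finer gates both *Ets1* eKO libraries had a lower *Sgce* CPM than both controls, a pattern held by 0.462% of the 12122 genes compared, and for *Grb10* this was so in 9 of 10 gates, with immune cells as the exception. A gene below controls in at least 9 of 10 gates was found among 1.98% of genes. For *Sgce* the immune gate rested on 7 and 4 UMIs in the controls against 1 and 3 in *Ets1* eKO. These were too few for the test, so the 10 of 10 count includes a gate near the limit of detection. In epicardial cells *Grb10* was 818 and 788 CPM for the controls against 710 and 688 for *Ets1* eKO, and in the compact cardiomyocyte gate 1080 and 1122 CPM for the controls against 992 and 840 for *Ets1* eKO. *Sgce* in the compact gate was 37.1 and 34.1 CPM for the controls against 27.1 and 25.9 for *Ets1* eKO. The gates come from the same 4 libraries and are not replicates of the comparison, and no test was made of this count. In the fits, which scale libraries by trimmed means rather than by total counts, the *Sgce* estimate was negative in each of the 6 gates where it was tested, from -0.14 in fibroblasts to -0.43 in cvEC, and none passed. In vEndo *Sgce* turned to 0.02 with cycling cells left out and to 0.88 after thinning to 2000 UMIs. Leaving out 1 library at a time, *Sgce* ranged from -0.42 to -0.08 in vEndo, from -0.32 to -0.04 in epicardial cells and from -0.22 to -0.06 in fibroblasts. *Grb10* ran from -0.13 to -0.22 in those 6 gates and turned to 0.013 in cvEC with cycling cells left out. With 1 library left out it ranged from -0.23 to -0.09 in mEndo, from -0.36 to -0.07 in vEndo, from -0.20 to -0.08 in cvEC, from -0.26 to -0.06 in cardiomyocytes and from -0.22 to -0.07 in fibroblasts. Scaling to total counts shifted the median of all genes in cardiomyocytes to -0.10 and in mEndo to -0.06, so that CPM values were slightly lower in *Ets1* eKO for genes in general. No other member had the groups apart in the same direction in more than 4 gates.

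The members had distinct distributions over the cell classes of the ventricle, described here over all 4 libraries without a test. *Cdkn1c* was highest in mEndo at 6549 ± 1240 CPM (mean ± SD, n = 4 libraries), followed by epicardial cells at 3990 ± 417 and pericytes at 2860 ± 286, and these ranges did not overlap. The next gate, cvEC, had 575 ± 102 CPM and overlapped with vEndo at 482 ± 218, which in turn overlapped with *Tcf21* type fibroblasts and both cardiomyocyte gates. Immune cells were lowest at 64.6 ± 39.0 CPM. *Plagl1* was likewise highest in mEndo, at 972 ± 72.8 CPM, followed by epicardial cells at 803 ± 25.9 and pericytes at 295 ± 55.1, whereas vEndo had 168 ± 29.5 CPM and immune cells 11.7 ± 6.42. *H19* was high in both endocardial gates, with 4263 ± 379 CPM in mEndo and 3742 ± 475 in vEndo, whose ranges overlapped, followed by epicardial cells at 2509 ± 176, whereas cvEC had 1110 ± 173, compact cardiomyocytes 547 ± 47.8, trabecular cardiomyocytes 301 ± 28.5 and immune cells 101 ± 35.6.

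*Mest* had another order, with cvEC at 1889 ± 81.8 CPM, trabecular cardiomyocytes at 1506 ± 256 and mEndo at 1209 ± 167, each overlapping its neighbor, and vEndo at 531 ± 68.2. *Peg3*, *Ndn* and *Phlda2* were highest in epicardial cells. *Peg3* was 1200 ± 144 CPM there, 651 ± 43.7 in fibroblasts of the *Tcf21* type, 440 ± 15.1 in cushion mesenchyme and 300.2 ± 35.04 in mEndo, with no overlap between these gates. *Ndn* was 317 ± 42.7 CPM in epicardial cells and 116 ± 10.9 in pericytes, and from 48.7 to 54.2 CPM on average in vEndo and mEndo, which overlapped. *Phlda2* was 5.62 ± 3.17 CPM in epicardial cells, from 27 UMIs in all, and at most 0.83 CPM on average in any other gate, with 0 UMIs in cvEC, pericytes and immune cells. *Grb10* was highest in compact cardiomyocytes at 1008 ± 125 CPM and overlapped with cushion mesenchyme at 788 ± 77.6, whereas the endothelial gates had 390 to 495 CPM on average and overlapped with each other. *Sgce* was highest in cushion mesenchyme at 75.8 ± 5.25 CPM, overlapping with *Tcf21* type fibroblasts, mEndo and epicardial cells.

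**Figure D4:**
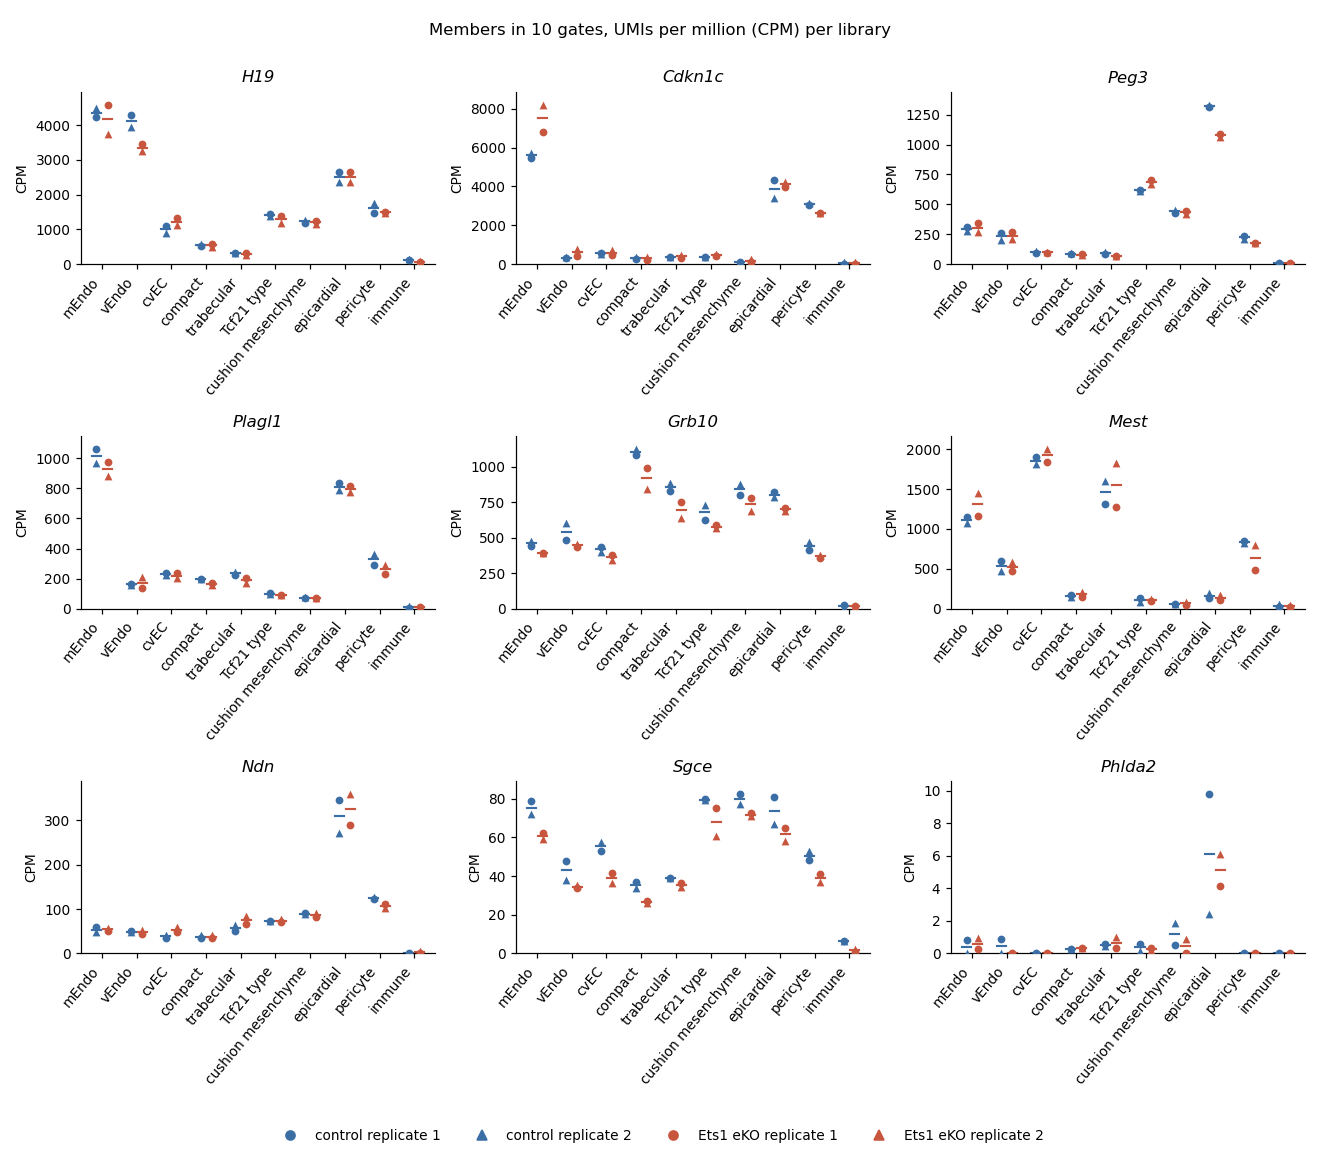
CPM (y axis, from 0, with its own range per gene) of the 9 genes in 10 gates, with 1 point per library, circles for replicate 1 and triangles for replicate 2, and a bar at the group mean. *Cdkn1c* and *Plagl1* were highest in mEndo, *Mest* in cvEC, trabecular cardiomyocytes and mEndo, *Peg3*, *Ndn* and *Phlda2* in epicardial cells, and *Grb10* in compact cardiomyocytes.

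Genes whose distribution over the gates was most like that of a member were found by Pearson correlation of log2(CPM + 1) over 40 sums (10 gates in 4 libraries), as a description in which the sums of a library share its depth. Among 12122 genes, *Cgnl1* (0.966) and the neighboring *Igf2* (0.956) were most like *H19*. *Plagl1* was the second most like *Cdkn1c* (0.908) after *B130024G19Rik* (0.920), and *Cdkn1c* was the most like *Plagl1*. *Grb10* was most like *Obsl1* (0.963) and *Tead1* (0.958), *Sgce* most like *Rhobtb3* (0.964) and *Nfib* (0.957), and *Peg3* most like *Sec23a* (0.956) and *Frk* (0.953). *Ndn* was most like *Itm2a* (0.942) and *Fkbp9* (0.935), and *Mest* had the lowest top values, with *Sh3glb2* (0.879) and *Mfge8* (0.857).

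Within the myocardium, *Mest* separated the trabecular from the compact cardiomyocyte gate in every library. Trabecular cells had 1318 and 1606 CPM for the controls against 1280 and 1822 for *Ets1* eKO, and compact cells had 178 and 150 CPM for the controls against 146 and 214 for *Ets1* eKO. The log2 difference, trabecular minus compact with a library term, was 3.17 ± 0.06 (SE, edgeR adjusted p = 1.28e-15). *Ndn* (0.84 ± 0.07), *Cdkn1c* (0.38 ± 0.04), *Sgce* (0.31 ± 0.06) and *Plagl1* (0.27 ± 0.04) were higher in trabecular cells in 4 of 4 libraries. *H19* (-0.82 ± 0.03) and *Grb10* (-0.34 ± 0.03) were lower in 4 of 4 libraries, and *Peg3* showed 0.01 (adjusted p = 0.931, edgeR). Thus 7 of 8 members tested passed, beside 47.6% of all genes. Cells of the 2 gates come from the same libraries, and 18.9% of cardiomyocytes lay in neither gate.

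Several members are known to act on cell division, and their levels were compared between cycling and other cells of the same gate and library. In mEndo, 4 of 8 members passed beside 29.7% of genes. *Plagl1* fell by the most in cycling cells, with 798 and 788 CPM in cycling and 1106 and 1012 CPM in other control cells, and 851 and 742 CPM in cycling and 1018 and 937 CPM in other *Ets1* eKO cells (-0.32 ± 0.04 SE, edgeR adjusted p = 1.03e-07). *H19* (-0.12) and *Cdkn1c* (-0.10) were also lower in cycling mEndo cells in 4 of 4 libraries, and *Mest* was higher (0.11) in 3 of 4. Of these calls *Plagl1* alone held without the first control library. *Cdkn1c* was also lost without the second control (-0.06), and *Mest* was lost without the second control (0.09), without the first *Ets1* eKO library (0.11), with total count scaling (0.07) and after thinning to 2000 UMIs (0.08, adjusted p = 0.334, edgeR).

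In cardiomyocytes 5 of 9 members passed beside 61.1% of genes. *Mest* (-0.46), *Ndn* (-0.39), *Peg3* (-0.36) and *Cdkn1c* (-0.34) were lower and *H19* (0.22) was higher in cycling cells, each in 4 of 4 libraries. *Grb10*, at -0.03 in the full fit, passed with total count scaling (-0.08), after thinning to 2000 UMIs (-0.07) and without the second *Ets1* eKO library (-0.05). Cycling cells were 36.4% and 34.6% of compact cells in the control pair and 37.8% and 43.7% in the *Ets1* eKO pair, beside 24.6% and 21.1%, and 24.9% and 27.3%, of trabecular cells, so that the cycling cardiomyocytes held more compact cells. The comparison was therefore repeated within each class, after the values were seen. Within compact cells 6 of 8 members passed beside 54.6% of genes, and within trabecular cells 6 of 8 beside 43.1%. *Mest* changed sign within compact cells (0.13, adjusted p = 0.00397, higher in 3 of 4 libraries) and was -0.32 within trabecular cells. *Cdkn1c* was -0.28 and -0.35, *Peg3* -0.34 and -0.33, *Ndn* -0.26 and -0.30, *H19* 0.09 and 0.34 and *Grb10* -0.06 and -0.13 in compact and trabecular cells, each past the threshold (edgeR for all). In fibroblasts 6 of 8 members passed beside 50.8% of genes. *Mest* (0.51), *Cdkn1c* (0.28), *Peg3* (0.24) and *Plagl1* (0.24) were higher and *Grb10* (-0.38) and *H19* (-0.14) were lower in cycling fibroblasts, and *Plagl1* no longer passed after thinning to 2000 UMIs (0.20, adjusted p = 0.15, edgeR). With total count scaling, which moved the median of all genes in fibroblasts from -0.03 to -0.13, these 6 kept their signs, with *Cdkn1c* at 0.17 and *Mest* at 0.40, and *Ndn* (-0.19, adjusted p = 0.0103) and *Sgce* (-0.19, adjusted p = 0.0208, edgeR) passed as well. Cycling cells were 28.1% to 33.0% of *Tcf21* type fibroblasts and 11.8% to 18.7% of cushion mesenchyme over the 4 libraries, so that the fibroblast values also held a difference in class. Within *Tcf21* type cells 3 of 8 members passed beside 37.5% of genes, *Mest* (0.32), *Grb10* (-0.29) and *H19* (-0.20), and within cushion mesenchyme 3 of 8 passed beside 23.1%, *Cdkn1c* (0.49), *Grb10* (-0.49) and *H19* (-0.30, edgeR for all). *Cdkn1c* was -0.09 within *Tcf21* type cells (adjusted p = 0.253, edgeR) and *Peg3* and *Plagl1* passed in neither class, whereas *Grb10* and *H19* were lower in cycling cells of both classes.

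**Figure D5:**
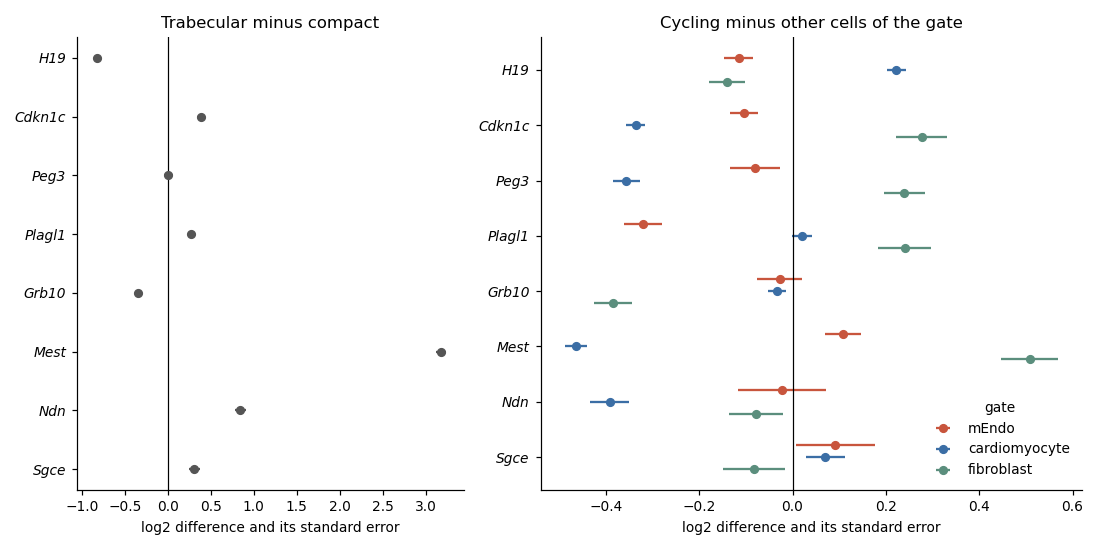
Log2 differences (x axis) of 8 members between trabecular and compact cardiomyocytes (left) and between cycling and other cells of mEndo, cardiomyocytes and fibroblasts (right), with points at the edgeR estimate and bars of 1 standard error. *Mest* was 3.17 higher in trabecular cells, and *Plagl1* in cycling mEndo cells was 0.32 lower; the panels have different ranges.

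For comparison, 62 further imprinted genes were listed, of which 60 were found in the matrices. In mEndo 46 of them could be tested, and 7 were higher and 1 was lower in *Ets1* eKO beside the 2.85% of all genes. At the *Dlk1* to *Mirg* locus, *Dlk1* was 95.8 and 71.3 CPM for the controls against 218 and 288 for *Ets1* eKO (1.66), with *Meg3* (1.54), *Rian* (1.61) and *Mirg* (1.43) also higher, each past the threshold. Outside that locus 42 genes were tested, with 3 higher, 1 lower and a median log2 fold change of 0.09. *Kcnq1*, a potassium channel gene of the cluster that holds *Cdkn1c* and *Phlda2*, was 27.3 and 30.3 CPM for the controls against 5.86 and 7.28 for *Ets1* eKO (-2.06 ± 0.20 SE, adjusted p = 0.000742). It was also the only listed gene to pass in cvEC, with 21.5 and 17.0 CPM for the controls against 2.95 and 4.35 for *Ets1* eKO (-2.31 ± 0.29 SE, adjusted p = 0.00403, edgeR), among 38 tested there, while 0 of 32 passed in vEndo, where 2 had an unadjusted p under 0.05. The genes that rose outside the *Dlk1* locus were *Gatm*, which encodes an enzyme of creatine synthesis, with 89.5 and 72.2 CPM for the controls against 122 and 139 for *Ets1* eKO (0.75, adjusted p = 0.0252), *Klf14*, which encodes a transcription factor, with 1.15 and 0.295 CPM for the controls against 5.73 and 4.60 for *Ets1* eKO (2.78 ± 0.47 SE, adjusted p = 0.0126), and *Dcn*, which encodes the matrix proteoglycan decorin, with 12.1 and 12.6 CPM for the controls against 43.0 and 36.3 for *Ets1* eKO (1.74, adjusted p = 0.000742, edgeR for all). *Klf14* rested on 10 and 2 UMIs in control mEndo against 46 and 43 in *Ets1* eKO mEndo, so the size of its fold change is uncertain. The *Dcn* values move with the fibroblast marker sum given above, whose part in them was not tested.

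Besides *Kcnq1* and *Klf14*, given above, the genes near the members in mEndo were the following, none of which passed the test. *Igf2*, the growth factor gene beside *H19*, was 1828 and 1621 CPM for the controls against 1748 and 1534 for *Ets1* eKO (-0.01). *Kcnq1ot1*, the antisense RNA of the *Cdkn1c* cluster, was 665 and 693 CPM for the controls against 650 and 733 for *Ets1* eKO (0.08). In the same cluster *Slc22a18* was 6.21 and 6.05 CPM for the controls against 3.24 and 3.96 for *Ets1* eKO (-0.70, adjusted p = 0.191), and *Nap1l4* was 117 and 124 CPM for the controls against 139 and 144 for *Ets1* eKO (0.29, adjusted p = 0.225). Beside *Peg3*, *Zim1* was 1.5 and 0.738 CPM for the controls against 3.61 and 3.0 for *Ets1* eKO (1.56, adjusted p = 0.083, edgeR), and *Usp29* differed by -0.29. *Peg10*, which shares its start region with *Sgce*, had 16.8 and 18.6 CPM for the controls against 26.8 and 21.0 for *Ets1* eKO (0.49), opposite in sign to *Sgce*. *Copg2* beside *Mest* (-0.12), *Casd1* (-0.14) and *Ppp1r9a* (-0.25) beside *Sgce*, *Snrpn* (0.09) and *Ube3a* (-0.07) in the wider imprinted domain of *Ndn*, and *Ddc* (0.43) beside *Grb10* were not called, and *Magel2* and *Cobl* had too few counts for the test.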

How the data were processed

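Gene counts (UMIs) per cell were deposited by the authors as 1 matrix per library, made with Cell Ranger 7.1.0 on mm10 per the submitters' processing notes, which also name Seurat 4.3.0, and not normalized. Whether intron reads were counted is not given in the sources used here. Barcodes were kept within 200 and 7000 genes and below limits of 20%, 35% and 2% for the shares of mitochondrial, ribosomal and hemoglobin UMIs, and doublets were removed by comparison with simulated pairs of cells. The study's own cell labels were not used here. Cells were gated by marker scores, and UMIs were summed per library and gate.

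Sums were tested with the quasi-likelihood test of edgeR 4.0.16 (TMM scaling, filterByExpr, group as the only term), with Benjamini-Hochberg adjustment over all genes of a gate and a call at 0.05. Differences of the response between gates, and levels between gates, were fitted with a library term. The standard error was taken as the fold change over the square root of F. DESeq2 1.42.0 was an alternative. Shares of cells used 2000 UMIs per cell and an exact permutation test of the libraries, for which 2 against 2 cannot go below 0.333. The code was tested on simulated data. The genes named are the 9 members, their locus partners, listed imprinted genes that passed in an endothelial gate, the 2 most alike genes per member, *Ets1*, *Igf2*, *Dlk1* and *Meg3*. The members and lists were chosen with earlier results of these data known. Gene positions were taken for 32158 of 32285 identifiers from GENCODE vM21.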

Additional observations from a re-analysis of the deposited data

Results flagged for a closer look

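The effect of *Ets1* deletion on *Igf2*, the neighbor of *H19*, differed between mEndo and cvEC by -0.48 on the log2 scale (SE 0.09, edgeR adjusted p = 0.0131, interaction of gate and genotype). *Igf2* did not pass in either gate alone, with a log2 fold change of -0.01 in mEndo and 0.48 in cvEC. The same difference was tested for the members and for *Ets1* and *Kcnq1*, and *Igf2* alone passed among them, beside 1.66% of all 13059 genes. Unlike the members, *Igf2* was not refitted in this contrast under other settings or with a library left out.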

How the results depend on the processing

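Of the values of members under other settings, 887 kept their direction and side of the threshold, 29 newly passed, 14 no longer passed and 107 changed sign, and the cause was not tested. DESeq2 called 15 genes in vEndo, 36 in cardiomyocytes and 78 in fibroblasts and put *H19* in mEndo at 0.0045. Without the filter on low counts 1148 genes were called in mEndo, 191 in vEndo, 338 in cvEC, 358 in cardiomyocytes, 172 in fibroblasts, 41 in epicardial and 0 in immune cells. *Cdkn1c* then passed as 1 member in mEndo (0.49, adjusted p = 0.0104, edgeR) and 1 in vEndo, with *H19* at 0.0021 in mEndo and -0.011 in fibroblasts, *Ndn* at -0.013 in vEndo and *Plagl1* at -0.0074 in cvEC. Total count scaling turned 171 higher and 202 lower genes in mEndo into 131 and 264, called 139 genes in cvEC and gave *Mest* -0.011 and *Ndn* -0.033 in vEndo, *Peg3* -0.061 and *Plagl1* -0.071 in cvEC, *H19* -0.038 in cardiomyocytes, *H19* -0.084, *Plagl1* -0.066, *Mest* -0.028 and *Ndn* -0.038 in fibroblasts, and *H19* -0.0053 and *Plagl1* -0.024 in epicardial cells. It also gave 2 members passing between mEndo and cvEC, where the share of all genes under this scaling was not counted. *Peg3* was then 0.0028 between mEndo and vEndo and -0.036 between trabecular and compact cells, and *Plagl1* was -0.026 in cycling cardiomyocytes.

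With cycling cells left out, 6 genes were called in vEndo and 56 in cvEC, *H19* was 0.0032 in mEndo, *Ndn* -0.27 and *Sgce* 0.020 in vEndo, and *Cdkn1c* -0.12, *Peg3* -0.23 and *Grb10* 0.013 in cvEC. Thinning to 2000 UMIs left 160 genes called in mEndo, 1 in vEndo and 19 in cvEC, with *H19* at 0.056 in mEndo, *Peg3* -0.012, *Ndn* -0.81 and *Sgce* 0.88 in vEndo, *Plagl1* -0.045 in fibroblasts and -0.027 in epicardial cells. In cycling against other cells it gave *Ndn* 0.080 and *Sgce* -0.12 in mEndo, *Plagl1* -0.010 and *Sgce* -0.19 in cardiomyocytes and *Ndn* 0.0040 in fibroblasts. A stricter gate gave 21 genes in epicardial and 2 in immune cells, *Peg3* -0.041 and *Plagl1* -0.063 in cvEC, *Plagl1* -0.028 in fibroblasts and *Mest* 0.48 in immune cells. Gates from 1 defining gene put *Ndn* at -0.023 in vEndo. With doublets kept, 0 genes passed in cardiomyocytes and 10 in immune cells, with *Plagl1* 0.52 and *Mest* 0.26 in immune cells, and a stricter cell filter gave 2 in immune cells. With endothelial cells not divided, an alternative chosen after seeing the data, *H19* was 0.040 and *Plagl1* 0.036.

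Replicate numbers did not pair the libraries, since correlations of their deviations lay between -0.12 and 0.0041. With the replicate block 571 genes were called in mEndo, 147 in vEndo, 259 in cvEC, 144 in cardiomyocytes, 20 in fibroblasts and 2 in immune cells, and 1 member passed in vEndo (*Cdkn1c*, 0.87). The crossed numbers in immune cells, chosen after seeing the data, gave 52 genes.

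When each library was left out in turn, with a lone library assumed to vary like the others, 132 to 1868 genes passed in mEndo, 82 to 193 in vEndo, 138 to 614 in cvEC, 14 to 2357 in cardiomyocytes, 52 to 357 in fibroblasts, 22 to 53 in epicardial cells and 6 to 55 in immune cells. Members passing numbered 0 to 2 in mEndo and 0 to 2 in cvEC, 0 to 1 in vEndo and 0 to 1 in immune cells, 0 to 3 in cardiomyocytes, 0 to 1 between mEndo and cvEC, 0 to 2 between mEndo and vEndo, and 1 to 4 in cycling mEndo cells. Without the first *Ets1* eKO library *Mest* passed in mEndo (0.47) and cardiomyocytes (0.66), *Ndn* in cvEC (0.70) and cardiomyocytes (0.46), and *Cdkn1c* in mEndo (0.63), vEndo (1.28), cvEC (0.44) and cardiomyocytes (0.46). Without the second *Ets1* eKO library *H19* passed in cvEC (0.46) and immune cells (-1.08), and without the second control *Cdkn1c* passed in vEndo (0.95). The range was, in mEndo, *H19* -0.14 to 0.11, *Peg3* -0.047 to 0.26 and *Ndn* -0.033 to 0.23; in vEndo, *Peg3* -0.079 to 0.33, *Plagl1* -0.14 to 0.42, *Mest* -0.13 to 0.25 and *Ndn* -0.11 to 0.15; in cvEC, *Cdkn1c* -0.20 to 0.44, *Peg3* -0.11 to 0.13 and *Plagl1* -0.095 to 0.10. In cardiomyocytes it was *H19* -0.069 to 0.21, *Cdkn1c* -0.22 to 0.46 and *Mest* -0.25 to 0.66, and in fibroblasts *H19* -0.082 to 0.082, *Plagl1* -0.048 to 0.094, *Mest* -0.23 to 0.42 and *Ndn* -0.049 to 0.14. In epicardial cells it was *H19* -0.036 to 0.15, *Cdkn1c* -0.0054 to 0.33, *Mest* -0.49 to 0.13 and *Ndn* -0.030 to 0.31, and in immune cells *Cdkn1c* -0.98 to 1.08, *Plagl1* -0.95 to 0.95, *Grb10* -0.32 to 1.29 and *Mest* -0.86 to 0.61. The difference between mEndo and cvEC was *Peg3* -0.12 to 0.31 and *Grb10* -0.15 to 0.12, and between mEndo and vEndo *Peg3* -0.13 to 0.12, *Plagl1* -0.58 to 0.15, *Grb10* -0.030 to 0.11, *Ndn* -0.020 to 0.13 and *Sgce* -0.13 to 0.13. *Peg3* between trabecular and compact cells ranged from -0.045 to 0.056, and in cycling mEndo cells *Grb10* from -0.043 to 0.022 and *Ndn* from -0.056 to 0.053.

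Cycling against other cells within each finer class, chosen after seeing the data, gave *Mest* 0.13 within compact, *Plagl1* -0.042 within trabecular, *Cdkn1c* -0.093 and *Ndn* 0.032 within *Tcf21* type and *Sgce* 0.064 within cushion mesenchyme cells, with 3 members passing in each fibroblast class.

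Of the differences in shares of cells with a UMI, 29 of 54 values at 1000 UMIs or at all UMIs per cell were marked as moved from those at 2000 UMIs. The mark compared the change with the spread between libraries. It also fell on *Phlda2* in cvEC, where share and spread were 0 and nothing changed, so the count of 29 is too high. Depth limits the immune gate and *Phlda2*, which had few UMIs.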
